A study of Mus musculus with 48 samples.

Results

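The integrin and laminin genes are 35 genes of the mouse genome, 17 for integrin alpha chains, 8 for integrin beta chains and 10 for laminin chains, out of 26180 genes with a curated RefSeq transcript. They were chosen by gene name, and every peak within 50 kb of a transcription start site of one of them was collected from 4 lists of ATAC-seq peaks. The lists together gave 492 accessible regions near these genes, of 287329 regions in all. No region lay within 50 kb of a pair of members, and for 324 of the 492 the nearest start site belonged to the member itself. For the other regions a neighbouring gene was nearer.

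The cells were P19, an established mouse embryonic teratoma line grown in serum, in which NODAL and GDF3 made by the cells keep the NODAL/Activin pathway active. In the SB-431542 state, cells had 10 µM of the drug overnight, which blocks the kinases of the receptors for NODAL and Activin, were washed and were given the inhibitor again for 1 h. In the 1 h Activin and 8 h Activin states, cells had the same inhibitor overnight, were washed free of it and then received Activin A at 20 ng/ml, for 1 h or 8 h. Untreated cells received neither agent. All states come from 1 cell line. The 1 h state matches the SB-431542 state in the time since the wash, and the 8 h and untreated states do not.

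ATAC-seq cuts open chromatin with a transposase, so a peak marks accessible DNA and not the amount of RNA or protein made from a gene. The sample labels list 48 libraries, 12 per state from 2 biological replicates, and the authors merged all libraries of a state before calling peaks. Each state is therefore 1 list with no replicate spread, and no difference between states was tested. Intervals are 95% Wilson intervals that cover counting error alone, and neighbouring regions are not independent. Read depth, estimated from the lowest background in each list, relative to the SB-431542 list, was 84.8% in untreated cells, 92.6% after 1 h of Activin and 79% after 8 h. As a check of the cell type, the promoters of all 8 markers of pluripotent cells had a peak with SB-431542 (that of *Dppa4* was absent at 8 h), while 4 of 13 markers of blood, liver, muscle and epidermis had one, namely *Ptprc*, *Spi1*, *Apoa2* and *Myod1*. In that list 74.1% of all protein-coding genes had a promoter peak, so the 8 pluripotent markers by themselves say little about the cell type.

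Integrins are receptors that hold cells to the matrix around them. Each is a pair of 1 alpha and 1 beta chain, and the pair decides which ligand is bound: laminins, collagens, proteins with an RGD sequence such as fibronectin, or molecules on other cells. Laminins are trimers of an alpha, a beta and a gamma chain and form the first layer of basement membranes, which appear in the embryo before gastrulation. NODAL and Activin act through SMAD2 and drive the formation of mesoderm and endoderm, during which cells change their adhesion.

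By overlap with a peak, promoters divided the genes the same way in every state. A peak overlapped the promoter, a window with 1000 bp before and 100 bp after a start site, in 27 of the 35 genes (77.1%, interval 61 to 87.9), and these were the same 27 genes in all 4 lists. Among all protein-coding genes such a peak was found for 74.1% (SB-431542), 73.6% (1 h), 73.3% (8 h) and 73.5% (untreated), so the share among the members was close to that of the genome. No member had a promoter peak in some lists only, and 1081 of 21000 protein-coding genes (5.15%) did, too small a share to set 35 genes apart. With the centre of the peak required in the window, 11, 9, 10 and 8 of the 35 genes had a promoter peak in the order SB-431542, 1 h, 8 h and untreated (31.4%, 25.7%, 28.6% and 22.9%, against 43.7%, 43.5%, 42.9% and 44.2% of protein-coding genes), so the lists no longer gave 1 set of genes. Every one of the 10 laminin genes had a promoter peak, as did 12 of 17 alpha chains and 5 of 8 beta chains. The peak covered at least 1 start site in all 27 genes and all lists. A further 3 start sites, of *Itga3*, *Itga9* and *Lama3*, had no promoter peak in any list. The start site of *Lamb3* at chr1:193302243 was not covered in untreated cells.

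**Figure D1:**
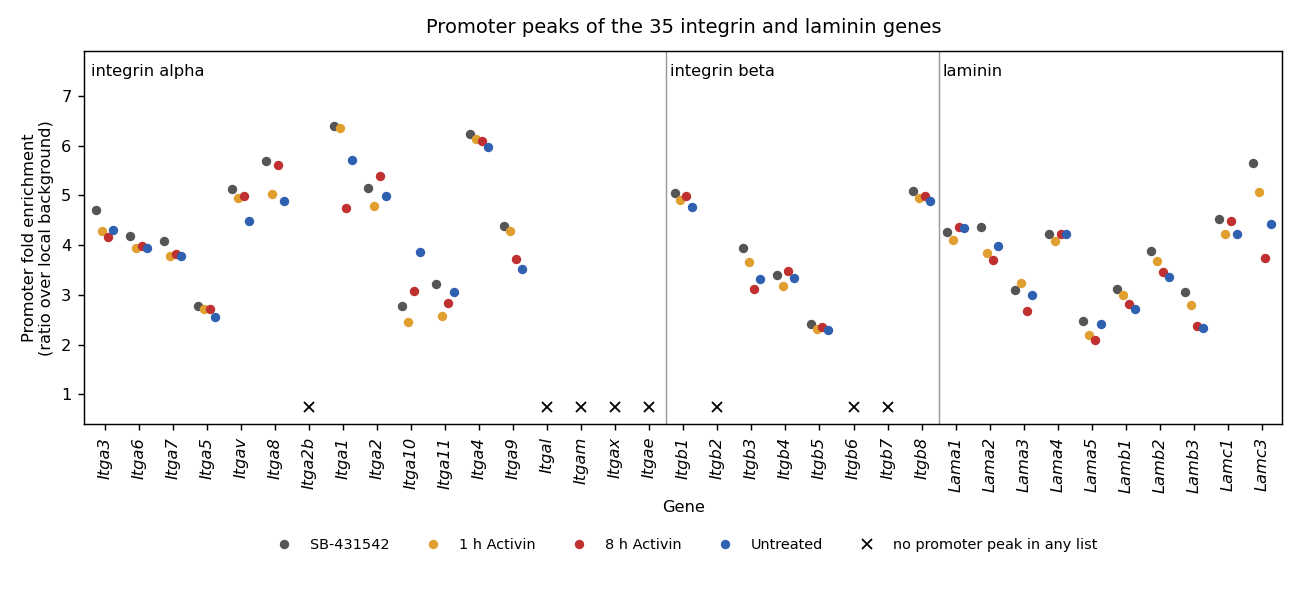
Fold enrichment of the promoter peak (y axis, ratio of pileup to local background) for each of the 35 genes (x axis), with 1 point per signalling state and a cross for genes without a promoter peak in any list. The 8 crosses are *Itga2b*, *Itgal*, *Itgam*, *Itgax*, *Itgae*, *Itgb2*, *Itgb6* and *Itgb7*, and the 10 laminin genes on the right all carry 4 points.

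The 8 genes without a promoter peak were *Itga2b*, *Itgal*, *Itgam*, *Itgax*, *Itgae*, *Itgb2*, *Itgb6* and *Itgb7*. All but *Itga2b* and *Itgb6* encode chains of leukocyte integrins: the products of *Itgal*, *Itgam* and *Itgax* pair with that of *Itgb2*, and the product of *Itgae* pairs with that of *Itgb7*. Both partners of each pair named here thus lacked a promoter peak in all 4 lists. Other pairings of these chains were not considered, so this does not extend to every leukocyte integrin. *Itga2b* encodes the alpha chain of the platelet fibrinogen receptor, whereas the promoter of its partner *Itgb3* had a peak in every list. *Itgb6*, the beta chain of an epithelial receptor that activates latent TGF-β together with the product of *Itgav*, has 2 start sites, and neither had a peak in the promoter window.

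Absence from the promoter window was not absence from the locus. At *Itgb6* a region in an intron (chr2:60672511-60673510) ended 0.183 kb downstream of the inner start site, outside the window, with a fold enrichment of 3.48, 3.56, 3.97 and 4.00 in the order of the inhibitor, 1 h, 8 h and the untreated state, an order kept for every set of 4 values in the text. The nearest region to the start site of *Itga2b*, in an intron 1.96 kb downstream, had 4.09, 3.73, 3.63 and 3.66. For *Itgb7* it lay 1.75 kb upstream with 3.17, 3.28, 3.01 and 3.36, and for *Itgb2* it lay 7.45 kb upstream, nearer to *2810425M01Rik*, with 2.33, 2.11, 2.87 and 2.63. These 4 regions were in every list. The nearest region to *Itgae* (1.57 kb upstream) was missing in untreated cells, that of *Itgal* (5.86 kb upstream) was present in untreated cells and at 8 h alone, and that of *Itgam* (1.57 kb upstream) in untreated cells alone. *Itgax* had no region within 50 kb in any list, and its nearest peak was 58.2 kb away.

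RefSeq promoter sequences of build GRCm38.p6, which is mm10, were at hand for 23 of the 35 genes. The 250 bases before the start site are shown, 5′ to 3′ on the strand of the gene, for a beta chain whose promoter was open in every state (*Itgb1*, chr8:128685404-128685653, plus strand), for a beta chain with no promoter peak (*Itgb7*, chr15:102231936-102232185, minus strand) and for the members with the largest promoter shifts in untreated cells (*Itga10*, chr3:96645334-96645583, and *Lamb3*, chr1:193301744-193301993, both plus strand). Capitals mark exact matches on either strand to any of 10 motifs fixed for the search.
Itgb1 promoter: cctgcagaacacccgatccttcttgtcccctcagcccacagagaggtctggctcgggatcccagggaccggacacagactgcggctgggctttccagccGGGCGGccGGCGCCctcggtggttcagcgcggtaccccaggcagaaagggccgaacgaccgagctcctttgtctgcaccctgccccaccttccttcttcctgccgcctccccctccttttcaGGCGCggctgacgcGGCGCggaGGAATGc
Itgb7 promoter: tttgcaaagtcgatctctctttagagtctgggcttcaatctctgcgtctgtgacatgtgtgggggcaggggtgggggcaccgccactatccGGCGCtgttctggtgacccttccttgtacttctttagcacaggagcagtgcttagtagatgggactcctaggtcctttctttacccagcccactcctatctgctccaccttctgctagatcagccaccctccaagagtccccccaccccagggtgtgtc
Itga10 promoter: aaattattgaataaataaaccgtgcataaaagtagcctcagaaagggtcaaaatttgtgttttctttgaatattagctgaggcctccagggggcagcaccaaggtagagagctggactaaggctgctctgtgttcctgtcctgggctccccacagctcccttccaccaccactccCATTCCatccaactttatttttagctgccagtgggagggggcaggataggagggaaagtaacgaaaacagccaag
Lamb3 promoter: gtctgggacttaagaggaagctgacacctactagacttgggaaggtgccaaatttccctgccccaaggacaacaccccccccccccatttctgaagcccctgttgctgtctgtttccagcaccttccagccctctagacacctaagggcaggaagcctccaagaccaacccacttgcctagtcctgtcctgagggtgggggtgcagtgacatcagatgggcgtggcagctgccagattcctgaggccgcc
The motifs were the SMAD palindrome GTCTAGAC, the GC-rich SMAD motif GGCGC, FOXH1 AATCCACA, TCF/LEF CTTTGAT, FOX GTAAACA, AP-1 TGAGTCA, ZIC CAGCAGG, POU ATTTGCAT, SP/KLF GGGCGG and TEAD GGAATG. The *Itgb1* sequence is 68% G and C and held the GC-rich SMAD, SP/KLF and TEAD motifs, the first of which can overlap the second. The *Itgb7* sequence (56% G and C) held the GC-rich SMAD motif, the *Itga10* sequence (48%) held the TEAD motif and the *Lamb3* sequence (58.8%) held none of the 10. Of 17492 promoters of protein-coding genes of the same length, 40.4% held the GC-rich SMAD motif, 42.7% the SP/KLF motif and 11.6% the TEAD motif. These letters are a description of the sequence and do not show that a factor binds there.

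Among the laminin-binding alpha chains, promoter fold enrichment was 4.70, 4.28, 4.17 and 4.30 at *Itga3*, 4.19, 3.95, 3.98 and 3.94 at *Itga6* and 4.09, 3.78, 3.83 and 3.78 at *Itga7*. These receptors anchor epithelial cells and muscle to laminin, and at all 3 genes the value was highest with SB-431542. The RGD-binding chains differed more from each other than between states. *Itgav*, whose chain pairs with several beta chains, had 5.14, 4.95, 4.99 and 4.49, *Itga8*, a nephronectin receptor of the developing kidney, had 5.69, 5.02, 5.61 and 4.88, and *Itga5*, the fibronectin receptor, had 2.78, 2.72, 2.72 and 2.56. The low values of *Itga5* put it at percentile 13.8 of the protein-coding promoters with a peak in the SB-431542 list, where *Itgav* stood at percentile 63.2.

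The collagen receptors held some of the strongest and some of the weakest alpha promoters. *Itga1* had 6.40, 6.35, 4.75 and 5.71 and *Itga2* had 5.16, 4.78, 5.39 and 4.98, while *Itga11*, a receptor of fibroblasts, had 3.23, 2.57, 2.83 and 3.06. *Itga10*, known from cartilage, had 2.77, 2.46, 3.08 and 3.87, so it was the only member promoter whose value in untreated cells was above that with SB-431542 by more than 0.1 on the log2 scale (0.48). *Itga4*, whose chain binds VCAM1 and fibronectin, had 6.23, 6.14, 6.09 and 5.97 and *Itga9*, whose chain binds tenascin C among other ligands, had 4.39, 4.28, 3.72 and 3.52.

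Of the beta chains, *Itgb1*, the partner of most alpha chains, had 5.04, 4.90, 4.98 and 4.76 and *Itgb8*, part of a receptor that activates latent TGF-β, had 5.09, 4.94, 4.98 and 4.89. *Itgb5* had the lowest promoter values of the beta chains, 2.42, 2.32, 2.36 and 2.29. *Itgb4*, the beta chain of hemidesmosomes, had 3.40, 3.18, 3.48 and 3.35 and *Itgb3* had 3.95, 3.67, 3.12 and 3.32. The spread over the 4 states was at most 0.29 for *Itgb1*, *Itgb4*, *Itgb5* and *Itgb8* and 0.83 for *Itgb3*.

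The chains of the trimer made first in the embryo all had promoter peaks: *Lama1* with 4.26, 4.11, 4.37 and 4.35, *Lamb1* with 3.12, 2.99, 2.82 and 2.71 and *Lamc1* with 4.53, 4.22, 4.49 and 4.22. *Lama5*, whose chain replaces that of *Lama1* in most later basement membranes, had 2.48, 2.19, 2.1 and 2.41, the weakest laminin promoter but for that of *Lamb3* in untreated cells. *Lama2*, the laminin of muscle, had 4.36, 3.85, 3.71 and 3.98, and *Lama4*, found around vessels, had 4.22, 4.08, 4.23 and 4.23. Of the epidermal chains, *Lama3* had 3.10, 3.24, 2.68 and 2.99 at its outer start site (chr18:12333934). Its inner start site (chr18:12504197) had no promoter peak in any list. *Lamb3* had 3.07, 2.79, 2.37 and 2.34. *Lamb2* had 3.89, 3.69, 3.46 and 3.37 and *Lamc3* had 5.66, 5.07, 3.75 and 4.43.

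Promoter fold enrichment was below the SB-431542 value in 26 of 27 genes at 1 h, 22 at 8 h and 24 in untreated cells (96.3%, 81.5% and 88.9%). Of 14955 protein-coding genes with a promoter peak in every list, 80% were below at 1 h, 74.7% at 8 h and 83% in untreated cells. The median log2 difference of the members was -0.09, -0.07 and -0.10, and that of all these genes was -0.05, -0.06 and -0.09. Promoters in general thus stood below SB-431542 as well. The exceptions among the members at 1 h and 8 h were few: *Lama3* was higher at 1 h, and *Itga2*, *Itga10*, *Itgb4*, *Lama1* and *Lama4* were higher at 8 h, each by 0.15 or less on the log2 scale.

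To take out differences between lists, each of the 162505 regions with a peak in every list was given its percentile among them, list by list, from its highest fold enrichment. A shift is the percentile in a state minus that with SB-431542, and shifts over 10 points were counted. Of the 27 promoter regions, 1 was lower and 0 were higher at 1 h, 4 were lower and 1 higher at 8 h, and 2 were lower and 1 higher in untreated cells. Of all shared regions, 12.1% were lower and 11.3% higher at 1 h, and 18.5% and 18.7% at 8 h. In untreated cells 18.8% were lower and 19.9% higher. The members' promoters thus did not shift more often than shared regions in general, and the share over all promoters was not counted. The lower one at 1 h was *Itga11* (-11.7 points). At 8 h the lower ones were *Lamb3* (-20.2), *Lamc3* (-17.6), *Lama5* (-16.3) and *Itgb3* (-13.4), and *Itga10* was higher by 10 points, only just past the threshold, while *Lama3* (-9.43) stayed just inside it.

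*Lamb3* and *Itga10* held the largest promoter shifts in untreated cells. The *Lamb3* promoter stood at percentile 60.9 with SB-431542, 59.3 at 1 h, 40.7 at 8 h and 39.2 in untreated cells, a shift of -21.7, and *Itga9* followed with -10.2. *Itga10* went the other way, from percentile 52.9 over 48.9 and 62.9 to 78.9, a shift of 25.9. Fold enrichment is a mean over the called peak, and the widths differed. From SB-431542 to untreated cells the peak went from 566 to 336 bp at *Itga10* and from 1316 to 334 bp at *Lamb3*. The effect of width was not tested. The ratio in a list depends on the local background as well as on the pileup, so the pileup was estimated too. On the log2 scale its difference from SB-431542 was -0.51 at 8 h and -0.70 in untreated cells at *Lamb3*, and 0.04 at 8 h and 0.36 in untreated cells at *Itga10*. At 8 h it was 0.10 at *Lama5* and -0.12 at *Lamc3*, so the lower percentile of these promoters was not matched by a pileup that was lower by a like amount.

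Around the promoters, the genes differed widely in how many regions they had. *Lama2* had 24 regions within 50 kb, the most of all members, and *Itga1*, *Itga7* and *Itgb8* had 21 each. *Itgax* had 0, *Itga11* and *Itgam* had 3 each and *Itgb1*, despite its strong promoter, had 8. Among laminins the fewest were 10, at *Lamb2* and *Lamc1*, and the median over the 35 genes was 14. Introns held 247 of the regions (50.2%), intergenic sequence 188 and exons 57. For 15 members no other gene had a start site within the window, and windows such as that of *Lamb2*, with 8 other genes, mix regions of several genes.

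**Figure D2:**
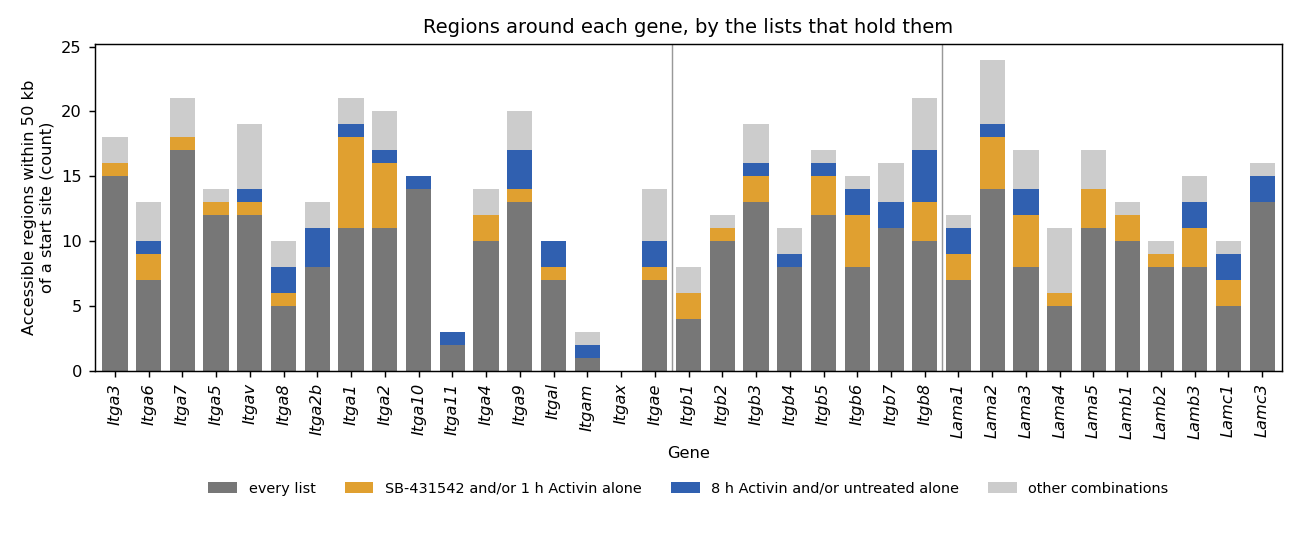
Number of regions within 50 kb of a start site (y axis) for each gene (x axis), split by the lists that hold them. Grey bars, regions in every list, make up 317 of the 492, and *Lama2* stands highest with 24 regions while *Itgax* has none.

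A peak was present in every list at 317 of the 492 regions (64.4%, interval 60.1 to 68.5), against 56.6% of all regions. By class the share was 66.7% for alpha chains (152 of 228), 63.9% for beta chains (76 of 119) and 61.4% for laminins (89 of 145). Among the remaining regions, 25 were found with SB-431542 and at 1 h Activin alone (5.08%, against 6.5% of all regions), and 22 were found at 8 h and in untreated cells alone (4.47%, against 2.65%). These 22 were spread over 16 genes, with no more than 2 at any of them.

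In the lists as deposited, gains and losses of peaks within 50 kb of the members were no more frequent than in all regions. A gained region has a peak in a state and none with SB-431542, and a lost one the reverse. At 1 h Activin 30 of 451 regions were gained (6.65%, interval 4.7 to 9.34) against 10.6% of all regions, and 46 were lost (10.2%, 7.73 to 13.3) against 11%. At 8 h Activin 41 of 462 were gained (8.87%, 6.61 to 11.8) against 9.2%, and 67 were lost (14.5%, 11.6 to 18) against 19.4%. In untreated cells 40 of 461 were gained (8.68%, 6.44 to 11.6) against 11.7%, and 69 were lost (15%, 12 to 18.5) against 17.1%. The background lay outside the interval for regions gained at 1 h and in untreated cells and for regions lost at 8 h, always on the side of less change among the members. With lists cut to equal length, 13.2% were gained (14.2% of all regions) and 11.4% lost (14.8%) at 8 h, so the balance of gains and losses there turned with the length of the lists. With the nearest start site required to be a member's, 10.8% were gained at 8 h and 18.4% lost in untreated cells, above the shares of all regions. The other gains and losses in that setting stayed below those shares. No matched share over all regions was counted for it.

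Shifts of the 317 shared regions were mostly small. At 1 h Activin 23 were higher by more than 10 points (7.26%, 4.88 to 10.7) against 11.3% of all shared regions, and 31 were lower (9.78%, 6.98 to 13.5) against 12.1%. At 8 h Activin 35 were higher (11%, 8.05 to 15) against 18.7%, and 61 were lower (19.2%, 15.3 to 23.9) against 18.5%. In untreated cells 48 were higher (15.1%, 11.6 to 19.5) against 19.9%, and 55 were lower (17.4%, 13.6 to 21.9) against 18.8%. Higher shifts were thus fewer than the background in each of the 3 comparisons, whereas the share of lower shifts was near it.

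**Figure D3:**
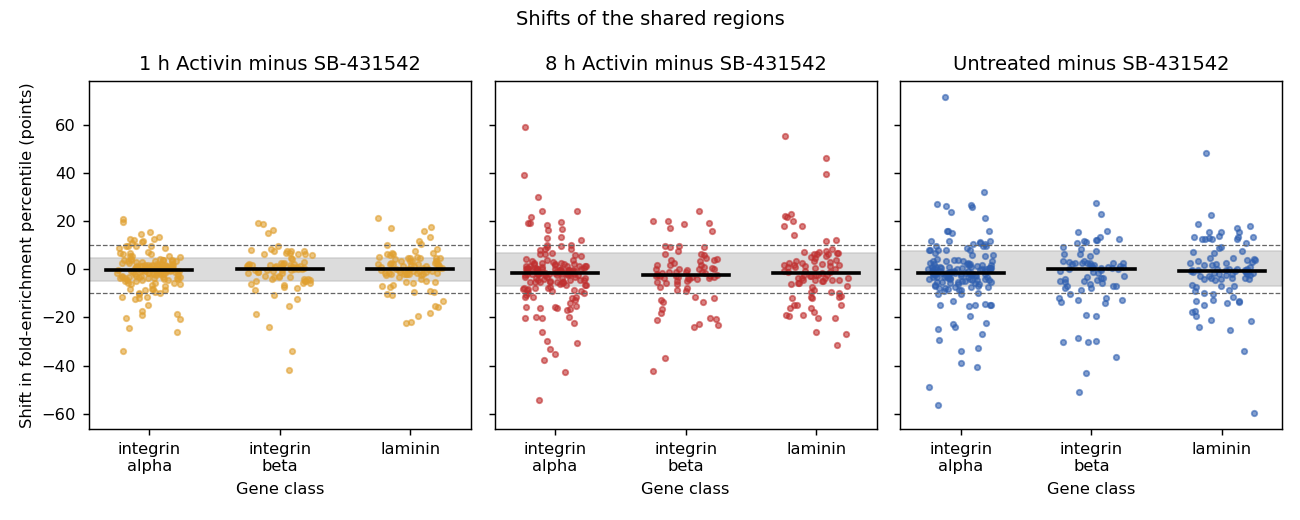
Shift of each shared region in percentile points (y axis) by gene class (x axis), with 1 panel per comparison with SB-431542. Black bars are class medians, the grey band spans the lower to the upper quartile of all 162505 shared regions and dashed lines mark 10 points. Points reach 71.6 points upward and -59.9 points downward in untreated cells and lie closer to 0 at 1 h Activin.

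By class, 8 of the 89 shared laminin regions were higher at 1 h (8.99%), 12 at 8 h (13.5%) and 18 in untreated cells (20.2%), and 9 (10.1%), 19 (21.3%) and 17 (19.1%) were lower. Of the 152 alpha chain regions 11, 16 and 19 were higher and 15, 27 and 22 were lower, and of the 76 beta chain regions 4, 7 and 11 were higher and 7, 15 and 16 lower. The intervals of the 3 classes overlapped in every comparison. The median shift of all members was 0.07 points at 1 h, -1.78 at 8 h and -0.73 in untreated cells, against 0.28, -0.17 and 0.08 over all shared regions.

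The largest upward shifts at 8 h Activin stood in introns of *Itga9* and *Lamc1* and upstream of *Lamb1*. In an intron of *Itga9*, 23.0 kb downstream of its start site, the region at chr9:118629670-118630396 had a fold enrichment of 1.71, 1.86, 3.13 and 3.74. It stood low with SB-431542 and at 1 h Activin and high at 8 h and in untreated cells, with shifts of 10.8, 58.9 and 71.6 points, the last being the largest of any member region. In an intron of *Lamc1*, 15.5 kb downstream, the region at chr1:153315221-153317243 had 2.11, 1.70, 4.28 and 3.69, shifts of -22.2, 55.3 and 48.3 points. Upstream of *Lamb1* by 12.0 kb, the intergenic region at chr12:31252186-31253277 had 1.80, 1.74, 2.80 and 2.19, shifts of -1.93, 46 and 22.5 points. The estimated pileup at 8 h was higher too, by 1.02, 1.29 and 0.87 on the log2 scale in the same order of genes.

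The central 300 bases of the strongest peak of each of these regions are shown, because these are the shared regions near integrin and laminin genes with the largest upward shifts at 8 h of Activin. They run 5′ to 3′ on the plus strand of GRCm38.p6, at chr9:118629887-118630186 for *Itga9*, chr1:153315817-153316116 for *Lamc1* and chr12:31252650-31252949 for *Lamb1*.
Itga9 intron: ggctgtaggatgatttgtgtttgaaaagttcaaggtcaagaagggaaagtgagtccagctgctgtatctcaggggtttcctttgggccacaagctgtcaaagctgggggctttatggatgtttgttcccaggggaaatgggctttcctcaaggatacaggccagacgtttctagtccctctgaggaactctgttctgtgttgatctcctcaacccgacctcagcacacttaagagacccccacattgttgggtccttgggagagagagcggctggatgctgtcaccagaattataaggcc
Lamc1 intron: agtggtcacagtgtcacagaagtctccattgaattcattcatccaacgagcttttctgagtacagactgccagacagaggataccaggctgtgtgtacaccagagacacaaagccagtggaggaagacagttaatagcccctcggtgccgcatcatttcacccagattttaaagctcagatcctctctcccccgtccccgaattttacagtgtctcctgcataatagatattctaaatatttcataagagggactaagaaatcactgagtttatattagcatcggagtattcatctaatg
Lamb1 upstream: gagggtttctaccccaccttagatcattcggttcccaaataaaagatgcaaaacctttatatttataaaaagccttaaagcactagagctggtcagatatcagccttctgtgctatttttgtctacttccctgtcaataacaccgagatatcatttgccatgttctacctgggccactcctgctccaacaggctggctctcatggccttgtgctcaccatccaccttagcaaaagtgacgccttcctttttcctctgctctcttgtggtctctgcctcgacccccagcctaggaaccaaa
None of the 10 motifs listed above had an exact match in any of the 3 sequences, so no letters are in capitals. The shorter SMAD element AGAC or GTCT that the authors describe was not among the 10. It occurs in each of the 3 sequences, and its share over all regions was not counted. In the 300 central bases of all 287329 regions, the GC-rich SMAD motif was found in 11%, the FOX motif in 4.3%, the FOXH1 motif in 1.32% and the SMAD palindrome in 0.287%. Absence of these letters from the window says nothing about binding of the factors.

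At *Lamc1*, 3 of the 5 shared regions were higher at 8 h Activin and 0 were lower, with a median shift of 17.9 points at 8 h and 15.6 in untreated cells, the largest of any member at 8 h. At 1 h, 0 of the 5 were higher and 2 lower, with a median shift of -9.48 points. Of all regions of *Lamc1*, 2 were gained and 2 lost at 8 h. Its region 11.3 kb downstream had 1.80, 1.52, 2.59 and 2.11 and its region 14.9 kb upstream had 2.76, 2.68, 3.45 and 3.30, while its promoter stayed at 4.53, 4.22, 4.49 and 4.22. At *Itga9*, 4 of the 13 shared regions were higher and 3 lower at 8 h, with a median shift of -1.63 points, and 3 were higher and 2 lower in untreated cells. Of the higher ones, the region 25.5 kb downstream had 2.23, 1.82, 2.77 and 2.94 and that 24.7 kb upstream, in an intron of *Golga4*, had 3.09, 2.89, 3.89 and 3.49. Of the lower ones, the region 5.36 kb downstream had 2.37, 1.82, 1.93 and 2.23 (-22.2 points at 8 h). The *Itga9* promoter itself was lower in untreated cells than with SB-431542, as given above. At *Lamb1*, 3 shared regions were higher and 2 lower at 8 h, so the regions of *Itga9* and *Lamb1* had no common direction.

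**Figure D4:**
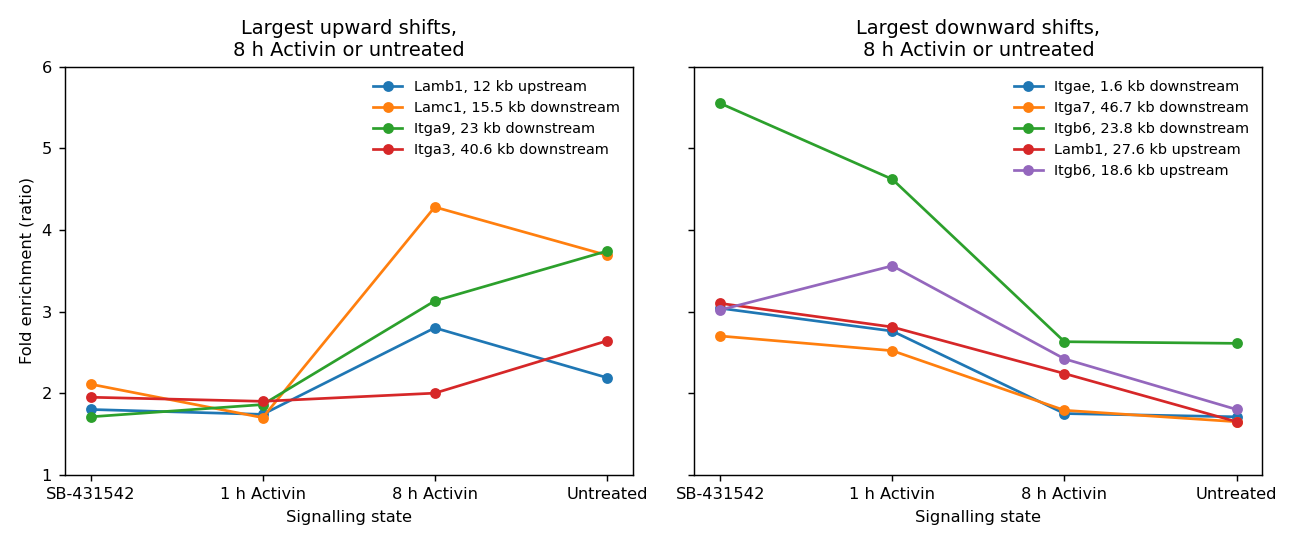
Fold enrichment (y axis, ratio) in the 4 states (x axis) of the shared regions with the largest upward and downward shifts at 8 h Activin or in untreated cells, 1 line per region, named by gene and distance from its start site. The *Lamc1* and *Itga9* lines go from below 2.2 with SB-431542 and at 1 h Activin to above 3.1 at 8 h and in untreated cells, and the *Itgb6* line at 23.8 kb goes from 5.55 to 2.61.

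The largest downward shifts at 8 h Activin were at *Itgb6*, *Itgae* and *Itga7*. In an intron of *Itgb6*, 23.8 kb downstream of its outer start site, the region at chr2:60698047-60698805 had 5.55, 4.62, 2.63 and 2.61, with shifts of -3.94, -42.3 and -43.1 points. The fold enrichment with SB-431542 was thus over 2 times that at 8 h, and the log2 difference in estimated pileup was -1.40 at 8 h and -1.48 in untreated cells. In an intron of *Itgae*, 1.6 kb downstream of a start site without a promoter peak, the region at chr11:73092180-73093270 had 3.04, 2.76, 1.75 and 1.71, shifts of -1.58, -54.5 and -56.4 points. The region in the *Itga7* window, at chr10:128980544-128981496 and nearest to *Olfr9*, had 2.70, 2.52, 1.79 and 1.65. In untreated cells the 3 largest downward shifts were that of *Itgae*, a region 27.6 kb upstream of *Lamb1* (3.10, 2.81, 2.24 and 1.65) and a further region of *Itgb6* (3.02, 3.56, 2.42 and 1.80). Of the 3 largest upward shifts in untreated cells, the one not yet given was in the *Itga3* window, in an intron of *Pdk2* (chr11:95027806-95028610), with 1.95, 1.9, 2.00 and 2.64, a shift of 31.9 points.

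The central 300 bases of the *Itgb6* region (chr2:60698281-60698580) and of the *Itgae* region (chr11:73092809-73093108), plus strand of GRCm38.p6, are shown as counterparts with lower values at 8 h, with motif matches in capitals.
Itgb6 intron: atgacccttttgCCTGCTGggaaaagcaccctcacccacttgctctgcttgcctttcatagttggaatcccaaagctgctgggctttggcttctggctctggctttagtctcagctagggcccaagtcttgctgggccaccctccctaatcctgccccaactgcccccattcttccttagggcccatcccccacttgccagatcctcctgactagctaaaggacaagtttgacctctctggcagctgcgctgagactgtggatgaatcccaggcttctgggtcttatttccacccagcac
Itgae intron: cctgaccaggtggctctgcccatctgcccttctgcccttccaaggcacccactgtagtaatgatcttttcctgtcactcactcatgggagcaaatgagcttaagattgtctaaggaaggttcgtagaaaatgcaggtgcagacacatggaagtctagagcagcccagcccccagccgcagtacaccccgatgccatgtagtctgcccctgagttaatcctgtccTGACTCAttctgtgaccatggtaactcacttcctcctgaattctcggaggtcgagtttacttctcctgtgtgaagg
The capitals mark 1 match to the ZIC motif on the other strand in *Itgb6* and 1 to the AP-1 motif on the other strand in *Itgae*. The ZIC motif was found in 12.5% and the AP-1 motif in 8.74% of all regions over windows of the same length. Among the 492 member regions the shares were 15.2% and 8.94%. The GC-rich SMAD motif was found in 20.1% of the member regions, and among regions over 1 kb from any start site in 13.9% of 416 member regions against 8.05% of 268651 regions. Among the same regions the SP/KLF motif, also rich in GC, was found in 11.1% against 5.54% and the TCF/LEF motif in 2.88% against 5.52%, so the difference was not particular to the SMAD motif. The SMAD palindrome was found in 3 member regions, 1 each at *Itgav*, *Itgb6* and *Itgb7*, and the FOXH1 motif in 3, namely 2 at *Itgb2* and 1 at *Lamb3*.

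The locus of *Itgb6* differed between states at many of its regions. Of its 15 regions, 13 had a peak with SB-431542, 11 at 1 h, 10 at 8 h and 11 in untreated cells. At 8 h Activin 5 were lost and 2 were gained, and in untreated cells 5 of its 8 shared regions were lower and 1 was higher, with a median shift of -16.2 points. The regions that were lower did not include those closest to the inner start site, where the region 0.183 kb downstream was higher in untreated cells by 11.3 points, but they did include the one 1.64 kb upstream of the outer start site, which was at -36.4 points there (3.73, 3.38, 3.48 and 2.30). An intergenic region 15.5 kb upstream (chr2:60738086-60740541) had no peak with SB-431542 or at 1 h Activin and a fold enrichment of 2.43 at 8 h and 3.17 in untreated cells. An intronic region 15.2 kb upstream of the inner start site (chr2:60688941-60689502) had 3.12 and 3.24 in the first 2 states, no peak at 8 h and 2.00 in untreated cells.

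**Figure D5:**
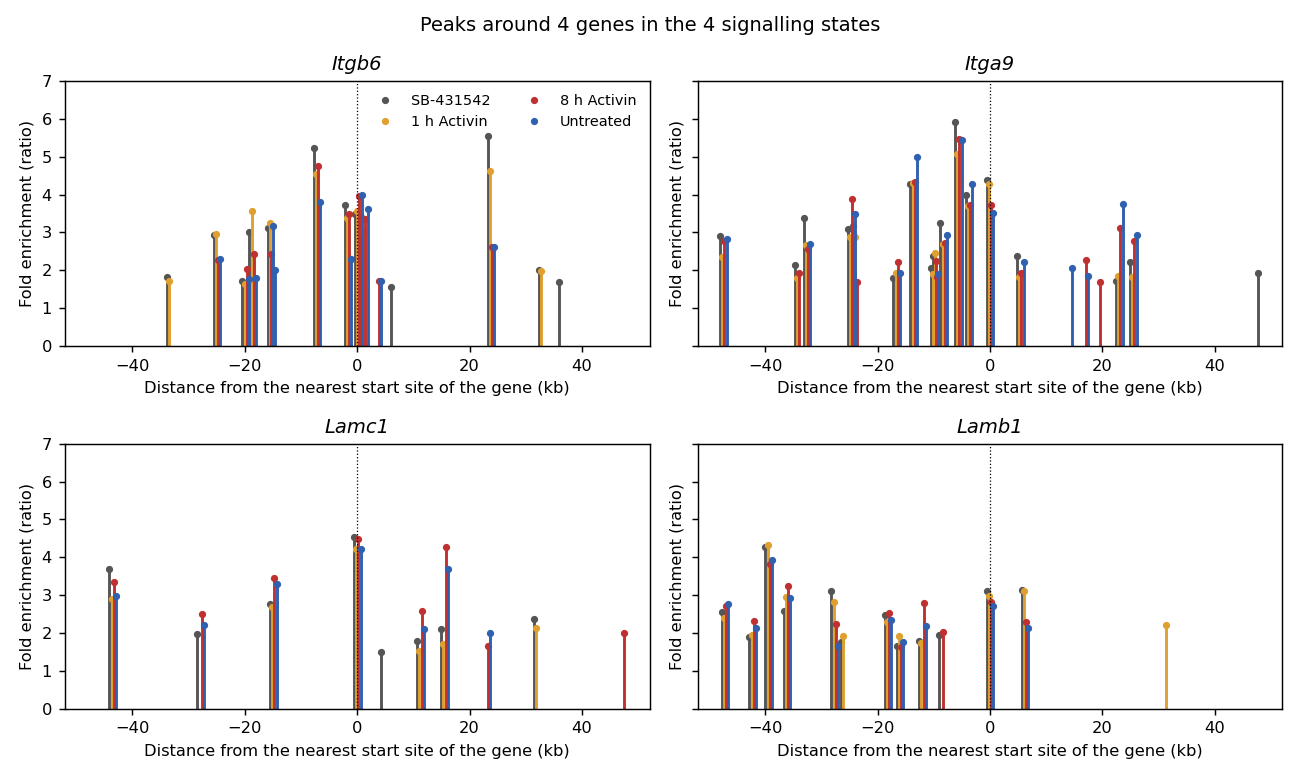
Fold enrichment (y axis, ratio) of the peaks in the 4 states against their distance from the nearest start site of *Itgb6*, *Itga9*, *Lamc1* and *Lamb1* (x axis, kb, negative upstream), with the states set slightly apart for legibility. *Itgb6* and *Itga9* have 2 start sites each, so distances are folded onto the nearer of them, and the peak of *Itgb6* at 23.8 kb is 5.55 high with SB-431542 and 2.63 high at 8 h Activin.

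The largest upward shifts at 1 h Activin were smaller than those at 8 h. They were in an intron of *Lama4* 27.3 kb downstream (2.03, 2.35, 1.79 and 1.67), in an intron of *Itgal* 12.3 kb downstream (2.36, 2.81, 2.86 and 2.15) and in the *Itga10* window inside *Ankrd34a* (1.81, 2.07, 1.87 and 1.78). The estimated pileup at 1 h was higher in the first 2, by 0.38 and 0.26 on the log2 scale, and lower in the *Itga10* window (-0.13), where the background estimate went from 189 to 128. Their shifts at 1 h were 21.2, 20.9 and 19.7 points, and of these regions only that of *Itgal* kept a shift over 10 points at 8 h (18.5). The 3 largest downward shifts at 1 h were in the *Itgb5* window inside *Muc13* (2.78, 1.79, 1.92 and 2.50), in an intron of *Itga2* 50 kb downstream (3.56, 2.19, 2.77 and 2.98) and in the *Itgb7* window inside *Csad* (2.37, 1.70, 2.38 and 1.81). Their shifts at 1 h were -42, -34.1 and -33.8 points and those at 8 h were -37, -16.1 and 1.83, and the *Itga2* region is at the outer edge of the 50 kb window.

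The strongest gained regions had fold enrichments between 1.56 and 3.27. The strongest 3 were taken by -log10 q, the significance of a peak over background in the authors' lists. At 1 h they were in an intron of *Lamb1* (6.40, fold enrichment 2.21), upstream of *Itgb8* (4.47, 2.00) and in an exon of *Itgb7* (3.68, 1.56). At 8 h they were in the *Lamc3* window near *Fibcd1* (9.25), the region upstream of *Itgb6* described above (7.81) and in an intron of *Lamb3* (7.79). The *Lamc3* one had a weaker peak already at 1 h (1.9, then 2.57 and 2.37), while the *Lamb3* one, 3.2 kb downstream of a promoter that stood lower at 8 h, had 2.48 at 8 h and 1.93 in untreated cells. In untreated cells the strongest were the *Itgb6* region (19.3), a region in the *Itgal* window near *Sephs2* (18.2, fold enrichment 2.07 at 8 h and 3.27 in untreated cells) and an intron of *Lama3* (9.04), which had a peak in untreated cells alone (2.51).

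By -log10 q the strongest lost regions stood above the strongest gained ones in each comparison, but by fold enrichment not all of them did. The -log10 q of a lost region comes from the SB-431542 list, the one with the greatest estimated depth. The first was in an intron of *Itga6*, 14.7 kb downstream (chr2:71801630-71802140), with 4.03, 3.32 and 2.15 in the first 3 states, no peak in untreated cells and a -log10 q of 36.2 with SB-431542. In an intron of *Itgav* 17.9 kb downstream the values were 2.97, 2.86 and 2.01 (-log10 q 22.9), and 9.97 kb upstream of *Itga5* they were 3.17, 2.90 and 1.73 (21.9), again with no peak in untreated cells. All 3 genes encode alpha chains with open promoters in every state, and in each region the value was lower in each successive list. At 8 h, after the *Itgb6* region given above (20.0), the strongest lost were in introns of *Itgb3* (2.94 and 2.85, -log10 q 18.4) and *Itgb5* (2.15 and 2.32, 18), with no peak at 8 h or in untreated cells. At 1 h the strongest lost were in an intron of *Lama4* (16.8), near *Itga2b* in an exon of *Gpatch8* (6.57) and in the *Lamb3* window inside *Hsd11b1* (6.44). Their fold enrichments with SB-431542 were 1.98, 2.18 and 2.16, and all 3 were present again in untreated cells.

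The 3 regions with the highest fold enrichment stayed at percentile 95.4 or above among the shared regions of every list. In the *Itgam* window, next to *Trim72*, a region had 8.61, 6.45, 6.93 and 7.20, and in the *Lama3* window, in an exon of *Ankrd29*, a region had 8.54, 7.85, 7.79 and 7.87. The third stood 30.5 kb upstream of *Itgb1* in intergenic sequence, with *Itgb1* as the nearest gene (chr8:128653847-128655168), and had 8.24, 7.87, 7.80 and 5.73. It was lower in untreated cells than in the other 3 states, with a log2 difference in the estimated pileup of -0.67, although at percentile 95.4 it kept its rank among all shared regions with a shift of -4.06 points.

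Genes that act with integrins and laminins were read in the same way. A promoter peak in every list was found for 71.2% of all protein-coding genes. All 14 genes of basement membrane and matrix had one. Of these, *Col4a1* and *Col4a2* had the same values (3.06, 2.81, 2.77 and 3.01), so they may not be separate peaks. *Fn1*, which encodes fibronectin, had 4.85, 4.74, 4.69 and 4.48. *Nid1*, whose product links laminin to collagen, had 4.68, 4.65, 5.02 and 4.62. *Spp1*, an RGD ligand, had 3.23, 3.62, 4.17 and 4.13. Of 18 genes for adaptors and kinases at the inner end of integrins, 17 had a promoter peak in every list, including *Tln1* (4.53, 4.56, 4.38 and 4.67), *Ilk* (4.81, 4.83, 5.07 and 4.98) and *Ptk2* (4.37, 4.68, 4.35 and 4.17), and *Tln2* had none. Of the 97 shared regions near matrix genes, 17 were higher (17.5%) and 30 lower (30.9%) at 8 h Activin, and of the 153 near adaptors 19 were higher (12.4%) and 27 lower (17.6%), where all shared regions had 18.7% and 18.5%. These lists were chosen with earlier results of these data known, and no difference from other genes was tested.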

How the data were processed

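P19 cells were profiled by ATAC-seq in 4 signalling states. According to the methods, the authors used cutadapt 1.9.1 for trimming and BWA 0.6.2 for alignment to mm10, merged the libraries of both biological replicates of a state, removed duplicates and called broad peaks with MACS2 2.1.1.20160309, reads shifted and extended around the cut, without a control. The deposited lists give, per peak, a fold enrichment (a ratio of pileup to local background), -log10 p and -log10 q and a score, all as made by the authors, with no read counts per replicate. Merged lists hide the spread between replicates, a low depth drops weak peaks, and without a control the background comes from the same sample.

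Peaks sharing at least 1 bp were merged into regions with Python 3.11.15, numpy 2.4.6 and pandas 2.3.3. Start sites were those of 45756 curated RefSeq transcripts of GRCm38.p6, whose chromosome lengths fit mm10, and all 35 members matched, with 41 start sites. Background and pileup were estimated from the fold enrichment and -log10 p by inverting a Poisson tail, which is approximate because both are means over a peak. Lists with planted changes were used to test the scripts. The members, pathway lists and motifs were chosen with earlier results of these data known. Text names all members by promoter state, promoters that shifted over 10 points, the 3 largest upward and downward shifts and the 3 strongest gained and lost regions of each comparison, and the 3 highest regions. The matrix and adaptor genes and regions given beside *Lamc1*, *Itga9*, *Lamb1* and *Itgb6* were chosen as examples after their values were seen.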

Additional observations from a re-analysis of the deposited data

Results flagged for a closer look

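In 6 shared regions the shift from SB-431542 had opposite signs at 1 h Activin and 8 h Activin, by more than 10 points each way. The difference was not tested, because each state is 1 merged list. How many of all shared regions did the same was not counted, so the number cannot be called high or low. In the *Lamc1* intron 15.5 kb downstream of the start site the shift was -22.2 points at 1 h and 55.3 at 8 h, and in the *Itga9* intron 25.5 kb downstream (chr9:118632160-118632623) it was -20.4 and 21.7. The other 4 went from higher to lower: 21.2 and -15 in the *Lama4* intron at chr10:38992831-38993280, 16.3 and -16.6 in the *Itgb6* intron at chr2:60692275-60692637, 13.6 and -12 in the *Itga2b* window at chr11:102437096-102438812 (an exon of *Fam171a2*, nearest to *Grn*, with log2 differences in estimated pileup of -0.05 and 0.03), and 10.3 and -14.7 in the *Lama3* intron at chr18:12496217-12497281.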

How the results depend on the processing

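Of 112 alternatives over 17 results, 85 left the value within its interval and 27 moved it. Requiring the centre of a peak in the promoter window left 31.4% (SB-431542), 25.7% (1 h), 28.6% (8 h) and 22.9% (untreated) of the genes with a promoter peak. Shares over all regions follow in brackets where they were counted. With peaks required to cover 50% of a region, 50.8% of regions (41.1%) were present in all lists, 11.7% (16.1%) were gained and 16.1% (15.8%) lost at 1 h, 20.7% (26.9%) were lost at 8 h and 19.3% (23%) in untreated cells. With lists of equal length, gains were 13.2% (14.2%) at 8 h and 11.8% (14.8%) in untreated cells, and losses at 8 h were 11.4% (14.8%). A minimum -log10 q of 5 left gains of 0.619% at 1 h (4.18%) and 6.41% at 8 h (7.28%). With the nearest start site required to be a member's, 58% of regions were in all lists and 9.56% were gained at 1 h. Within 10 kb, 4% were gained and 5.33% lower at 1 h and 8% higher in untreated cells. No matched share over all regions was counted for the nearest start site and 10 kb settings, so these values have no background. With a log2 change over 0.25, 4.1% were higher (6.34%) and 4.1% lower (5.19%) at 1 h, 12.9% lower (11.7%) at 8 h, and 8.83% higher (13.4%) and 13.2% lower (13.2%) in untreated cells. By percentile of the estimated pileup 13.6% (15.1%) were lower at 8 h and 10.7% (16.5%) higher in untreated cells, and by percentile of -log10 q 4.42% (9.72%) were higher at 1 h. The cause was not tested. No paired analysis was possible because each list merges both replicates, and no replicate could be left out for the same reason. The lower depth at 8 h and in untreated cells limits the weakest peaks.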
